A study of Mus musculus with 3 samples.

Results

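The 38 genes described here encode the machinery that receives, folds, glycosylates and checks new proteins in the endoplasmic reticulum of mouse cells. They were taken by symbol from the 31053 genes of each count table. They comprise 9 lumenal chaperones and cochaperones, 2 lectin chaperones, 4 disulfide isomerases, 3 prolyl isomerases, 9 genes of the translocon and signal peptidase, 5 genes of the oligosaccharyltransferase, 3 genes of degradation and 3 transcription factors of the stress response. All 38 were found in the tables.

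Bone marrow cells of C57BL/6 mice, enriched for Kit, went into 3 single-cell RNA libraries of the 10x Genomics 3 prime chemistry. Kit is the stem cell factor receptor carried by blood stem and progenitor cells. Each group was 1 library: an unchallenged library at steady state, a library challenged once with Escherichia coli and labelled 24 h, and a library given 2 challenges with Escherichia coli and labelled 48 h, called rechallenged below. The series' design text speaks of 2 samples and another treatment, so the groups rest on the sample labels. The number of challenges and the labelled hours therefore differed together and cannot be told apart, and the labels do not say from when the hours count or whether marrow from several animals was pooled. With 1 library per group there is no replicate error, so no test was made, and every comparison below is between libraries and not between conditions.

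Proteins meant for secretion, for membranes or for granules enter the endoplasmic reticulum through the Sec61 channel, where chaperones hold them, isomerases set their disulfide bonds and proline turns, and an oligosaccharyltransferase adds sugars. When unfolded proteins accumulate, membrane sensors raise the output of many of these genes through the transcription factors Xbp1, Atf6 and Atf4. Neutrophil precursors make their granule proteins on this route. Elastase and myeloperoxidase are made mainly at the progenitor stages, and specific granule proteins later in the lineage.

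The tables held 9684, 9060 and 8923 cell barcodes for the unchallenged library, the library challenged once and the rechallenged library, with 119646078, 135079828 and 95522747 UMIs (unique molecular identifiers, counts of single RNA molecules). After filtering and removal of called doublets 8796, 8356 and 8286 cells were kept. Their median depth was 10969, 13004 and 10247 UMIs and their median mitochondrial share was 2.07%, 2.58% and 4.10%, in the same order. The libraries shared 103 to 125 barcodes by pairs. Levels are UMIs summed over the cells of a population in 1 library, per 1000000 UMIs of that population (CPM), with exact Poisson 95% intervals that cover counting error only. A level summed over a population does not tell apart more cells with a transcript and more transcripts in each cell.

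The early myeloid progenitor-like cells were 1 cluster, with 224, 653 and 376 cells. Its cells had a median depth of 17411, 25725 and 17111 UMIs. It had Cd34 at 188, 121 and 118 CPM, Kit at 65.1, 50.6 and 71.3 CPM, and Mpo (myeloperoxidase) at 4210, 2847 and 3224 CPM, in the order unchallenged, challenged once and rechallenged. The neutrophil progenitor-like cells, the granule-forming cells of this set, numbered 737, 1159 and 1671 and came from 2 clusters, with a median depth of 18181, 26066 and 14208 UMIs. In both populations the library challenged once was thus the deepest per cell. Beyond a thinning of cells with at least 5000 UMIs to 5000 UMIs each, the part of depth in the differences below was not tested. After thinning, Hspa5 was found in 89.5%, 98.4% and 95.9% of neutrophil progenitor-like cells, and Xbp1 in 48.8%, 55.6% and 46.8%. Atf4 was found in 40.5%, 52.5% and 32.6% of neutrophil progenitor-like cells, and Ddit3 in 7.05%, 11.8% and 11.7%. Elane (neutrophil elastase) stood there at 15670, 9421 and 7030 CPM, and Cd34 at 13.5, 10.6 and 8.21 CPM. The 8 early myeloid markers, Mpo, Cd34 and Kit among them, summed to 16080, 15760 and 14010 CPM in early myeloid progenitor-like cells. They summed to 23560, 23110 and 20330 CPM in neutrophil progenitor-like cells, so their sum does not single out the cluster named for them. Of the 8, 1 was among that cluster's 10 genes with the largest fold, as was 1 HSPC marker. In that cluster basophil or mast cell markers summed to 370, 112 and 90.9 CPM and HSPC markers to 379.5, 265 and 270 CPM. Mature neutrophil markers summed to 356, 314 and 359 CPM. Whether the mix of cells in that cluster differed between libraries was not tested. The source label names bone marrow neutrophils while cells were enriched by Kit, and the kept cells held 3513, 1071 and 1452 immature neutrophil-like cells and 442, 458 and 727 mature neutrophil-like cells. The members were left out of the genes used for clustering. Even so, Fkbp11, a prolyl isomerase of the secretory pathway, was among the 10 genes with the largest fold of the early myeloid progenitor-like cluster, and Fkbp11 and Sdf2l1 were among the 10 of the earlier neutrophil progenitor-like cluster.

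In both progenitor populations the genes as a set took the largest share of RNA in the library challenged once. The 38 genes together held 1.31% of UMIs of neutrophil progenitor-like cells in the unchallenged library, 1.82% after 1 challenge and 1.53% after 2. The shares in early myeloid progenitor-like cells were 1.19%, 1.43% and 1.24%. Over single neutrophil progenitor-like cells the median share was 1.31% (quartiles 1.09% and 1.52%), 1.81% (1.62% and 1.99%) and 1.54% (1.33% and 1.72%). The lower quartile of the library challenged once thus lay above the upper quartile of the unchallenged library. HSPC-like cells (haematopoietic stem and progenitor cells) held 0.562%, 0.632% and 0.561%, and immature neutrophil-like cells 0.293%, 0.492% and 0.434%. Over single immature neutrophil-like cells the medians were below these sums, at 0.273% (quartiles 0.229% and 0.330%), 0.381% (0.293% and 0.520%) and 0.357% (0.267% and 0.510%).

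A gene was counted as higher or lower when its CPM, with 10 CPM added to both values, differed at least 1.5-fold, provided the 2 libraries together had at least 100 UMIs of it. All 38 genes reached that minimum in both progenitor populations. The shares and medians over all genes measured, here and below, were not matched to the members by level. The added 10 CPM draws the ratios of genes at low levels toward no difference. In neutrophil progenitor-like cells 13 of 38 were higher in the library challenged once than in the unchallenged library and 0 were lower, where 2.16% of the 9197 genes measured were higher and 1.23% lower. Their median log2 ratio was 0.48, against 0.06 over all genes measured. Among early myeloid progenitor-like cells 6 of 38 were higher and 0 lower, where 3.22% of all genes measured were higher and 1.85% lower, and the medians were 0.28 and 0.08. Those 6, Hspa5, Hsp90b1, Sdf2l1, Creld2, Fkbp11 and Sec61a1, were all among the 13. The other 7 of the neutrophil progenitor-like cells were Hyou1, Dnajb11, Dnajc3, Manf, Calr, Pdia4 and Atf4.

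Scaling to total UMIs sets where 0 lies. The median of the gene ratios placed it higher by 0.11 for challenged once over unchallenged in neutrophil progenitor-like cells and by 0.12 in early myeloid progenitor-like cells, and lower by 0.21 and 0.18 for rechallenged over challenged once. Read against that centre, 10 and 4 genes were higher after 1 challenge, where 1.19% and 1.49% of all genes measured were higher.

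**Figure D1:**
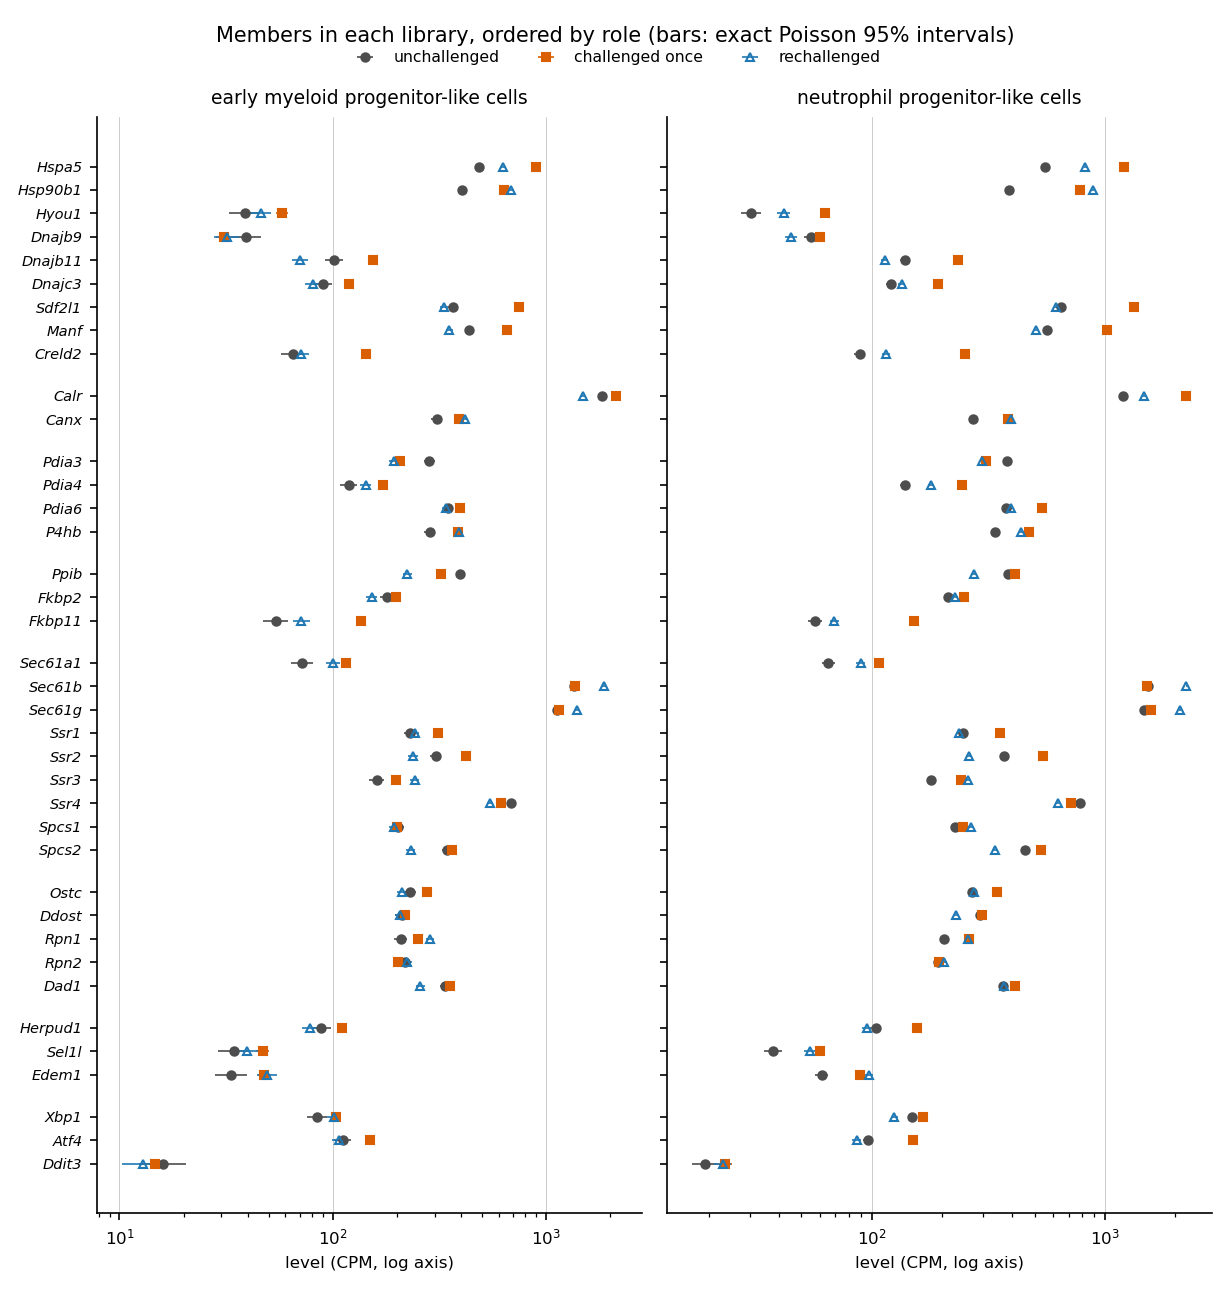
Levels of the 38 genes in early myeloid progenitor-like cells (left) and neutrophil progenitor-like cells (right), with CPM on a log axis. Circles stand for the unchallenged library, squares for the library challenged once and triangles for the rechallenged library, bars are exact Poisson 95% intervals, and genes are ordered by role. The square lies to the right of both other symbols for most of the lumenal chaperones at the top, while Sec61b and Sec61g have the triangle farthest right.

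The lumenal chaperones differed most. After 1 challenge 8 of the 9 were higher in neutrophil progenitor-like cells, with a median log2 ratio of 0.86, and in early myeloid progenitor-like cells 4 of the 9 were higher, with a median of 0.57. Hspa5 (chr2:34771970-34777547, plus strand, GRCm38) encodes BiP, the Hsp70 chaperone of the endoplasmic reticulum and the gene most used as a readout of its stress response. Its level in neutrophil progenitor-like cells was 555 CPM unchallenged, 1216 CPM challenged once and 826 CPM rechallenged. The library challenged once was thus 2.19-fold above the unchallenged library (95% interval 2.14 to 2.25), and the rechallenged library lay between them, 1.49-fold above unchallenged (1.45 to 1.53). The early myeloid progenitor-like cells had the same order, at 484, 898 and 628 CPM, a 1.85-fold difference after 1 challenge (1.77 to 1.94).

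Creld2 (chr15:88819646-88826683, plus strand), an endoplasmic reticulum protein with disulfide isomerase activity, had the largest ratio in neutrophil progenitor-like cells. It stood at 89.0, 252 and 115 CPM there, 2.84-fold higher after 1 challenge (2.67 to 3.02) and 2.19-fold lower after 2 challenges than after 1 (2.10 to 2.29). The early myeloid progenitor-like cells had 64.8, 143 and 70.9 CPM, a 2.21-fold difference after 1 challenge (1.94 to 2.52). The library challenged once was the highest in both populations. Rechallenged over unchallenged, the fold was 1.09 in early myeloid progenitor-like cells, with an interval from 0.939 to 1.28, and 1.30 in neutrophil progenitor-like cells (1.21 to 1.39).

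Sdf2l1 (chr16:17130138-17132383, minus strand) encodes a partner of the Hsp40 cochaperones that keeps BiP clients soluble, and Dnajb11 (chr16:22857845-22879634, plus strand) encodes such an Hsp40. Sdf2l1 stood at 647, 1331 and 618 CPM in neutrophil progenitor-like cells and at 367, 745 and 332 CPM in early myeloid progenitor-like cells. Dnajb11 stood at 139, 235 and 114 CPM and at 101, 155 and 70.3 CPM. Both genes were lowest in the rechallenged library in both populations. Against the library challenged once, Sdf2l1 was 2.15-fold lower there in neutrophil progenitor-like cells (2.11 to 2.19) and Dnajb11 2.07-fold lower (1.98 to 2.16). Manf (chr9:106838312-106891979, minus strand), a secreted and lumenal stress protein, had the same order at 564, 1024 and 510 CPM and at 435, 653 and 352 CPM. Its annotated span overlaps Rbm15b on the same strand, so reads of the 2 genes may not be fully separated.

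Hsp90b1 (chr10:86690209-86705509, minus strand) encodes GRP94, the Hsp90 of the endoplasmic reticulum. Unlike the genes above it was highest in the rechallenged library. It stood at 388, 780 and 890 CPM in neutrophil progenitor-like cells, 2.01-fold above unchallenged after 1 challenge (1.95 to 2.07) and 2.29-fold after 2 (2.22 to 2.36). The levels in early myeloid progenitor-like cells were 404, 636 and 688 CPM. Of the 13 genes higher after 1 challenge, Hsp90b1 alone was still at least 1.5-fold above the unchallenged neutrophil progenitor-like cells after 2, with scaling to total UMIs.

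Hyou1, a large Hsp70 relative that helps BiP exchange its nucleotide, stood at 30.3, 63.4 and 41.9 CPM in neutrophil progenitor-like cells, and Dnajc3, a cochaperone that also inhibits the kinase Eif2ak3, at 121, 192 and 135 CPM. Both were highest after 1 challenge and lay between after 2. Dnajb9, an Hsp40 that represses the sensor Ern1, was the 1 lumenal chaperone not counted as higher, at 55.2, 60.3 and 45.1 CPM, and in early myeloid progenitor-like cells it stood at 39.3, 30.9 and 31.9 CPM.

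Calr and Canx encode calreticulin and calnexin, the lectins that hold sugar-bearing proteins. Calr (chr8:84841850-84846934, minus strand) stood at 1199, 2237 and 1470 CPM in neutrophil progenitor-like cells, 1.87-fold higher after 1 challenge (1.84 to 1.90). The early myeloid progenitor-like cells had 1828, 2131 and 1487 CPM, 1.17-fold higher (1.14 to 1.20). Calr was thus counted as higher in the later population alone, and whether the 2 populations differ was not tested. Canx stood at 274, 386 and 396 CPM in neutrophil progenitor-like cells, a log2 ratio of 0.48 after 1 challenge and 0.52 after 2, with both challenged libraries above the unchallenged one.

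Among the disulfide isomerases Pdia4 was counted as higher after 1 challenge in neutrophil progenitor-like cells, at 139 against 243 CPM, and it stood at 180 CPM after 2. Pdia6 and P4hb, at 378 against 536 CPM and 337 against 475 CPM, had log2 ratios of 0.49 and 0.48, short of 1.5-fold. Pdia3, the isomerase that works with calnexin and calreticulin, was below the unchallenged library in both challenged libraries. It stood at 379, 310 and 299 CPM in neutrophil progenitor-like cells and at 283, 207 and 194 CPM in early myeloid progenitor-like cells, so that the unchallenged library was the highest in both. Its log2 ratios of -0.28 and -0.44 after 1 challenge did not reach 1.5-fold.

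Fkbp11 (chr15:98724366-98728198, minus strand) stood apart from the other 2 prolyl isomerases. It stood at 57.3, 151 and 69.3 CPM in neutrophil progenitor-like cells, 2.64-fold higher after 1 challenge (2.45 to 2.85). That fold pools 2 clusters whose mix differed between libraries, which the interval does not cover. In early myeloid progenitor-like cells the ratio of Fkbp11 was the largest of the 38 genes, at 53.9, 135 and 71.2 CPM, 2.51-fold (2.18 to 2.90). Fkbp2, at 213, 249 and 229 CPM in neutrophil progenitor-like cells, and Ppib (cyclophilin B), at 385, 411 and 274 CPM, did not reach 1.5-fold after 1 challenge. Ppib was lowest in the rechallenged library, and in early myeloid progenitor-like cells, at 396, 322 and 224 CPM, it was the 1 gene of the set counted as lower there than in the unchallenged library, with a log2 ratio of -0.80.

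Of the 9 genes of the translocon and signal peptidase 1 was counted as higher after 1 challenge, Sec61a1, which encodes the pore-forming subunit. It stood at 65.2, 108 and 89.8 CPM in neutrophil progenitor-like cells and at 71.7, 116 and 101 CPM in early myeloid progenitor-like cells. The 2 small subunits of the same channel had another order. Sec61b stood at 1533, 1518 and 2241 CPM in neutrophil progenitor-like cells and at 1349, 1372 and 1870 CPM in early myeloid progenitor-like cells. Sec61g stood at 1480, 1586 and 2105 CPM and at 1126, 1145 and 1399 CPM. For both genes the 2 other libraries were close and the rechallenged library was high, 1.48-fold over challenged once for Sec61b in neutrophil progenitor-like cells (1.458 to 1.495) and 1.33-fold for Sec61g (1.31 to 1.34). Sec61b shares 45.2% of the 31-base words in its last 300 bases with the gene models Gm10320, Gm33666 and Gm5870, so its level is uncertain.

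The 4 subunits of the translocon-associated protein complex did not move together. Ssr2 stood at 369, 546 and 261 CPM in neutrophil progenitor-like cells and at 303, 422 and 238 CPM in early myeloid progenitor-like cells, highest after 1 challenge and lowest after 2. Ssr3 stood at 180, 241 and 259 CPM and at 161, 197 and 242 CPM, lowest in the unchallenged library. Ssr1 was highest after 1 challenge, at 246, 356 and 238 CPM in neutrophil progenitor-like cells, and Ssr4 was highest in the unchallenged library, at 780, 718 and 629 CPM. Of the signal peptidase subunits, which remove the leader of an entering protein, Spcs2 stood at 455, 532 and 338 CPM in neutrophil progenitor-like cells and Spcs1 at 229, 246 and 267 CPM.

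None of the 5 genes of the oligosaccharyltransferase reached 1.5-fold in any comparison in either population. Their log2 ratios after 1 challenge in neutrophil progenitor-like cells ran from 0.01 for Rpn2 to 0.34 for Ostc, with a median of 0.16. Of the 3 degradation genes Herpud1, a membrane protein of the disposal complex, stood at 105, 156 and 95.2 CPM and Sel1l, the adaptor of the ubiquitin ligase Syvn1, at 37.8, 60.1 and 54.2 CPM, with log2 ratios of 0.54 and 0.55 after 1 challenge, just under 1.5-fold with the 10 CPM added. Edem1, which routes misfolded glycoproteins to disposal, stood at 61.1, 89.0 and 97.0 CPM and was counted as higher after 2 challenges, with a log2 ratio of 0.59, just past 1.5-fold.

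The transcription factors differed less than the chaperones. Xbp1 stood at 149, 166 and 125 CPM in neutrophil progenitor-like cells and at 84.6, 104 and 102 CPM in early myeloid progenitor-like cells. Its activity depends on splicing of its RNA, which these 3 prime counts do not show. Atf4 stood at 96.6, 150 and 86.3 CPM in neutrophil progenitor-like cells, counted as higher after 1 challenge at a log2 ratio of 0.59, just past 1.5-fold, and at 112, 149 and 107 CPM in early myeloid progenitor-like cells. Ddit3, a factor linked to cell death under prolonged stress, stood at 19.2, 23.5 and 22.9 CPM and at 16.1, 14.7 and 12.8 CPM, with overlapping intervals in early myeloid progenitor-like cells. The annotation holds 2 overlapping genes of that symbol, so its count is uncertain.

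Against the unchallenged library, the rechallenged library differed in few of these genes. Of the 38 genes 2 were higher in neutrophil progenitor-like cells, Hsp90b1 and Edem1, and 0 were lower, where 1.96% of all genes measured were higher and 5.14% lower, with medians of 0.12 and -0.07. The median of gene ratios moved 0 by -0.13 here, and with that scaling 7 genes were higher, where 3.54% of all genes measured were, the added ones being Hspa5, Canx, Sec61b, Sec61g and Ssr3. The early myeloid progenitor-like cells had 1 higher, Hsp90b1, and 1 lower, Ppib, where 2.93% of all genes measured were higher and 5.73% lower. The medians there were -0.03 and -0.06. With the median of gene ratios Ssr3 joined Hsp90b1, making 2 higher and 1 lower, where 4.16% and 4.0% of all genes measured were. This comparison depended on the clustering: resolution 2 gave 0 higher and 7 lower, and keeping doublet calls, or the members among the clustering genes, gave 4 lower.

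Against the library challenged once, the rechallenged library was lower in many of the chaperones. In neutrophil progenitor-like cells 10 of 38 were lower and 0 higher, where 9.22% of all genes measured were lower and 1.37% higher, with medians of -0.35 and -0.11. The early myeloid progenitor-like cells had 7 of 38 lower and 0 higher, where 7.82% were lower and 1.24% higher, with medians of -0.24 and -0.11. The 7 were Dnajb11, Sdf2l1, Manf, Creld2, Fkbp11, Ssr2 and Spcs2, all among the 10, and the other 3 were Calr, Herpud1 and Atf4. With the median of gene ratios the neutrophil progenitor-like cells had 6 lower and 2 higher, the 2 being Sec61b and Sec61g, and the early myeloid progenitor-like cells had 6 lower and 1 higher, Sec61b. With that scaling 4.14% of all genes measured were lower and 3.30% higher in the former, and 3.65% and 2.71% in the latter. At clustering resolution 2 the early myeloid progenitor-like cells had 13 lower. Of the 13 genes higher after 1 challenge in neutrophil progenitor-like cells, 7 were at least 1.5-fold lower again after 2, 1 was still higher than unchallenged, and the other 5 lay between. The comparisons share libraries and are not independent of each other.

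**Figure D2:**
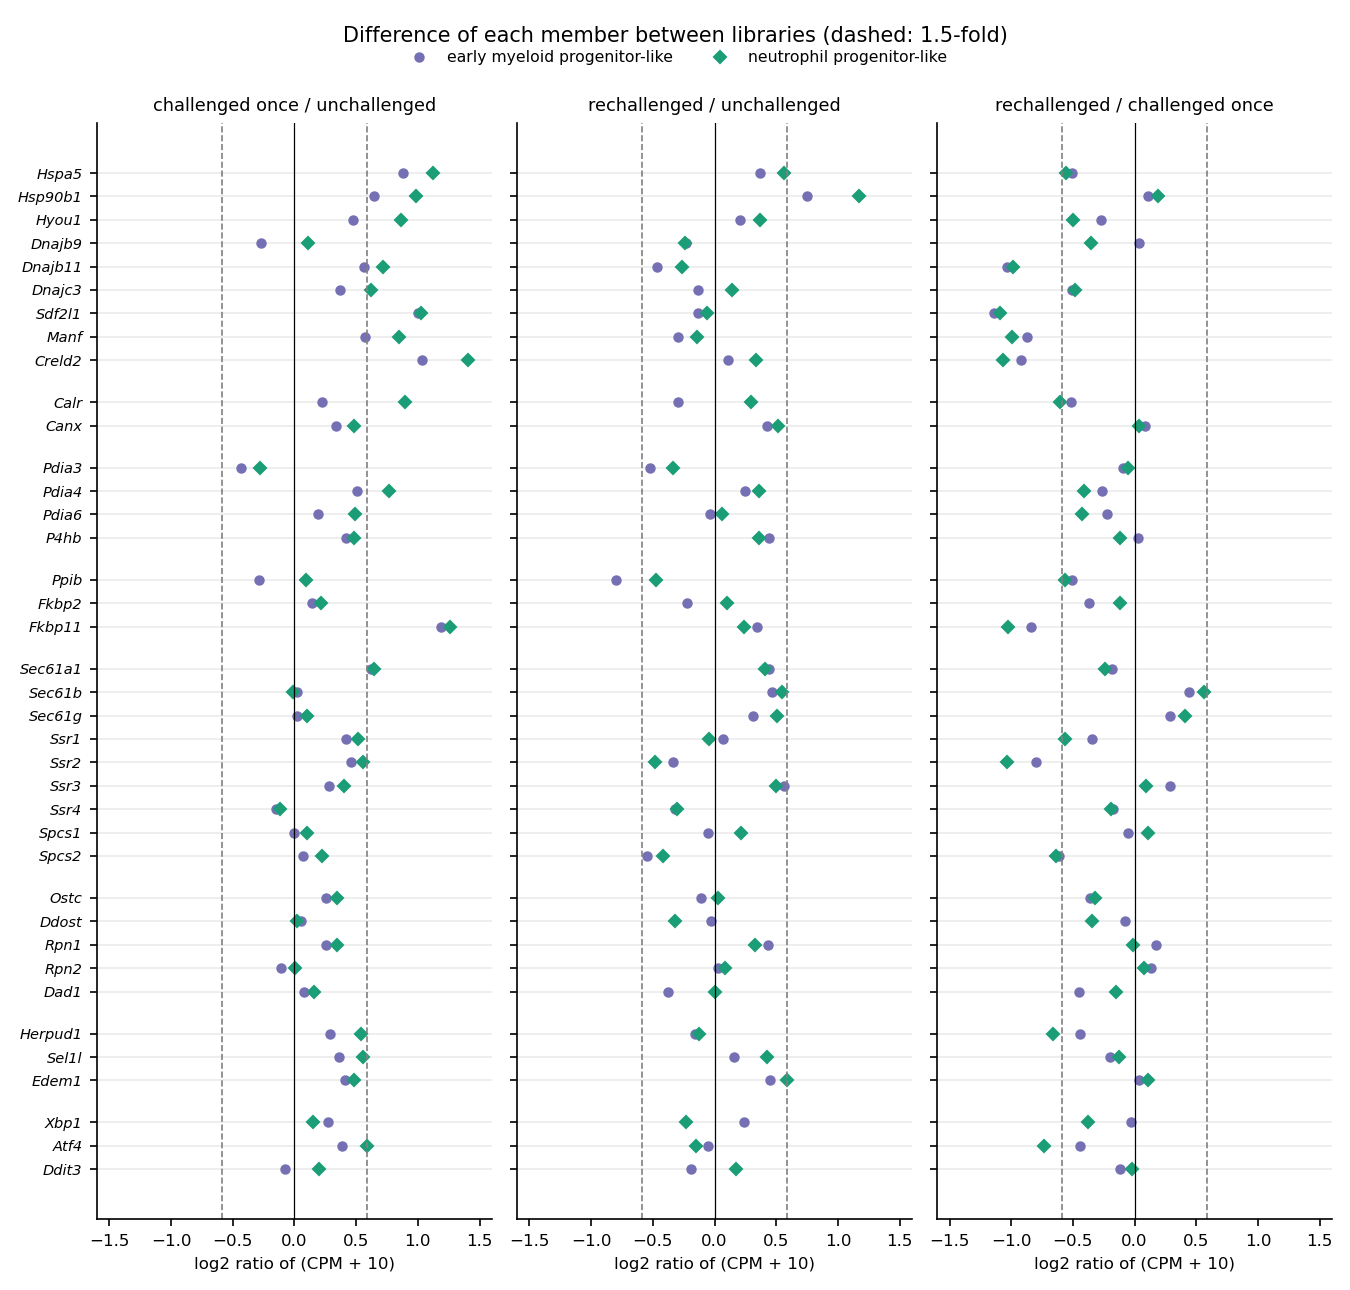
Log2 ratio of (CPM + 10) of each of the 38 genes for the 3 pairs of libraries, with circles for early myeloid progenitor-like cells and diamonds for neutrophil progenitor-like cells. Dashed lines mark 1.5-fold. In the left panel 13 diamonds and 6 circles lie right of the right-hand dashed line and none left of the left-hand one. In the right panel 10 diamonds and 7 circles lie left of the left-hand dashed line.

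The 2 neutrophil progenitor-like clusters differed in their mix of cells, with 357, 814 and 935 cells in the earlier cluster and 380, 345 and 736 in the later. Each showed the difference on its own. Ratios of the pooled class also carry this change of mix, and its part in them was not tested. The median log2 ratio of the 38 genes after 1 challenge was 0.36 in the earlier cluster and 0.45 in the later, against 0.48 in the pooled class. After 1 challenge 12 of 38 genes were higher in the earlier cluster and 12 in the later, where 2.46% and 1.12% of all genes measured were higher. Against challenged once, 8 and 10 genes were lower in the rechallenged library, where 8.35% and 11.9% of all genes measured were lower. Hspa5 stood at 630, 1308 and 918 CPM in the earlier cluster and at 473, 950 and 673 CPM in the later.

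Along the lineage from HSPC-like cells to mature neutrophil-like cells most of the genes peaked in the earlier neutrophil progenitor-like cluster, 29 of 38 in the unchallenged library, 28 after 1 challenge and 27 after 2. Over all named groups that cluster was the highest for 20, 25 and 25 of the 38. Fkbp11 stood at 53.9, 135 and 71.2 CPM in early myeloid progenitor-like cells, 93.1, 190 and 98.1 CPM in the earlier cluster, 18.5, 39.3 and 21.1 CPM in the later, and 1.37, 3.67 and 1.23 CPM in immature neutrophil-like cells. Hspa5 stood at 221, 229 and 147 CPM in HSPC-like cells and at 90.3, 257 and 109 CPM in immature neutrophil-like cells. In HSPC-like cells the unchallenged library and the library challenged once were thus close, and in immature neutrophil-like cells the library challenged once stood apart.

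**Figure D3:**
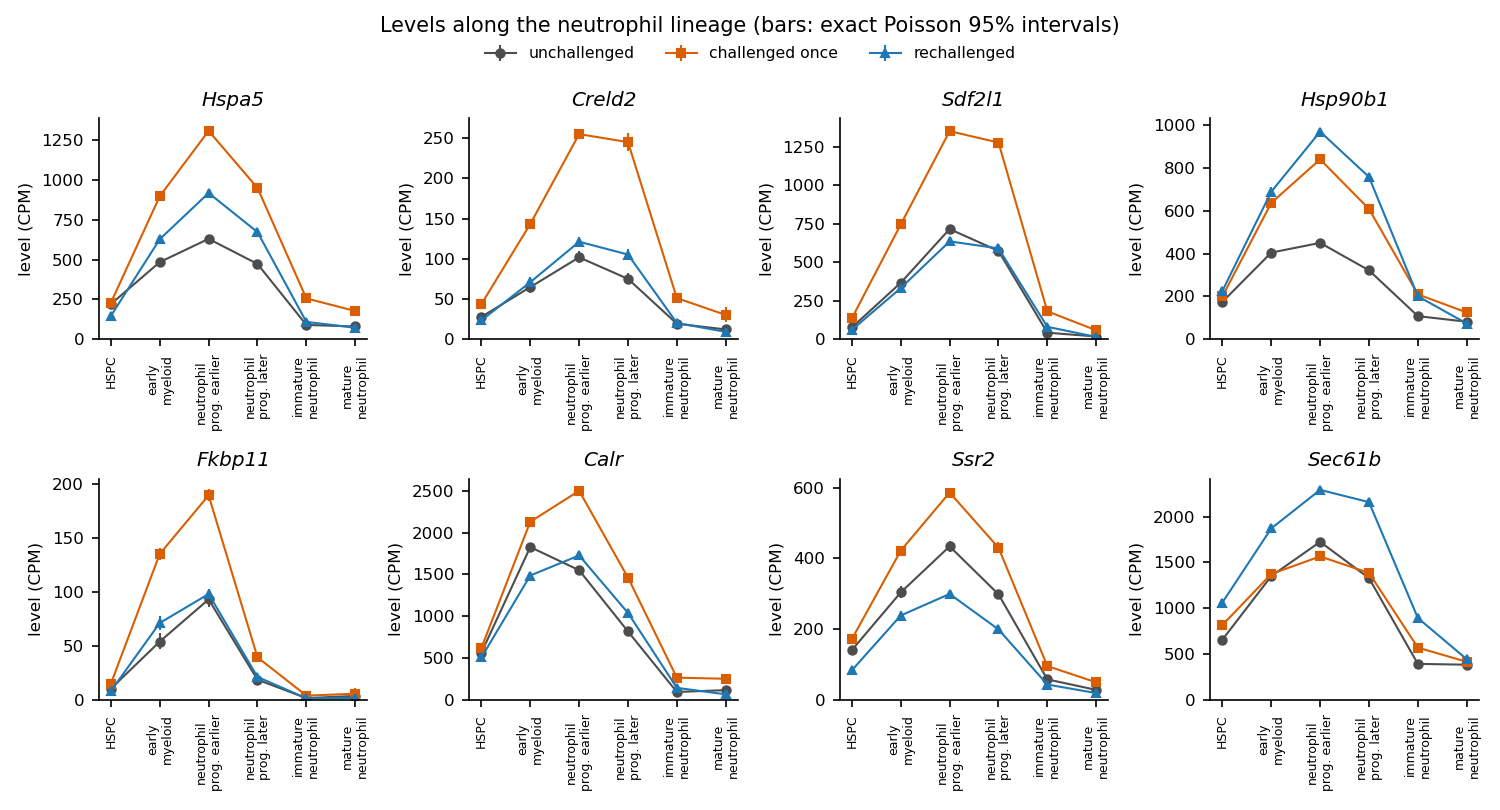
Levels of 8 of the genes in 6 groups of the neutrophil lineage, from HSPC-like cells at the left to mature neutrophil-like cells at the right, with CPM on linear axes and exact Poisson 95% intervals as bars. Each line is 1 library. The line of the library challenged once is the highest at the earlier neutrophil progenitor-like cluster for Hspa5 (1308 CPM), Creld2, Sdf2l1, Fkbp11, Calr and Ssr2, and the line of the rechallenged library for Hsp90b1 (969 CPM) and Sec61b (2291 CPM).

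Immature neutrophil-like cells, which hold low levels of these genes, had the largest count of the populations described here after 1 challenge. The class joins 3 clusters whose mix differed between libraries, with 1635, 381 and 475 cells in the first, 1348, 485 and 357 in the second and 530, 205 and 620 in the third, led by Fcnb. There 18 of the 37 genes measured were higher and 0 lower, where 1.36% of all genes measured were higher and 0.237% lower, and the median log2 ratio was 0.55. Sdf2l1 stood at 42.9, 182 and 81.0 CPM there, Calr at 91.5, 263 and 141 CPM, and Pdia6 at 34.3, 106 and 61.4 CPM. The unchallenged library was the lowest for each of the 3. The rechallenged library had 8 genes higher than the unchallenged library and 0 lower, where 3.01% of all genes measured were higher and 3.28% lower, led by Sec61b at a log2 ratio of 1.17. That count was not seen in each cluster. Against the library challenged once it had 12 lower and 1 higher, again Sec61b, where 6.72% were lower and 1.79% higher. In the clusters taken alone, an analysis added after seeing the data, 12 of 36, 13 of 36 and 20 of 36 were higher after 1 challenge, where 1.19%, 5.10% and 1.81% of all genes measured were higher. Rechallenged over unchallenged, 1, 0 and 6 were higher and 0, 2 and 0 lower, where 2.52%, 3.40% and 4.37% of all genes measured were higher and 7.31%, 6.17% and 7.16% lower. Rechallenged over challenged once, 16 of 35, 15 of 34 and 13 of 35 were lower, where 12.8%, 17.0% and 11.7% were lower. In HSPC-like cells 1 of 38 was higher after 1 challenge, where 0.725% of all genes measured were higher. After 2 challenges 7 were lower than unchallenged, where 11.9% of all genes measured were lower. Monocyte-like cells had 6 of 38 higher after 1 challenge, where 0.618% of all genes measured were higher, with Hspa5 at 543, 942 and 558 CPM. After 2 challenges 10 were lower there than after 1, where 7.12% of all genes measured were lower.

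The difference after 1 challenge was small in erythroid-like and B lineage-like cells. In erythroid-like cells 0 genes were higher, where 0.303% of all genes measured were higher, with Hspa5 at 185, 190 and 188 CPM. There 1 gene, Pdia3, was lower, where 0.791% of all genes measured were lower. In B lineage-like cells 0 of 37 were higher, where 1.57% of all genes measured were higher. Counts of 0 are near these shares. The median log2 ratios were -0.02 in erythroid-like and 0.08 in B lineage-like cells, against -0.03 and -0.002 over all genes measured. Over 13 named classes Hspa5 was at least 1.5-fold higher in 5 and its log2 ratios ran from -0.46 in megakaryocyte-like cells to 1.41 in immature neutrophil-like cells. Sdf2l1 was higher in 8 of the 12 classes where it was measured.

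Several differences between the 2 challenged libraries were seen in nearly every class. Ssr2 was at least 1.5-fold lower after 2 challenges than after 1 in 12 of 12 classes, Sdf2l1 in 11 of 12, Dnajb11 in 10 of 11, and Manf and Spcs2 in 10 of 12, where 4.64% (erythroid-like) to 29.8% (T, NK or innate lymphoid-like) of all genes measured in a class were lower. In erythroid-like cells Ssr2 stood at 223, 221 and 121 CPM and Spcs2 at 184, 172 and 114 CPM. Sec61b was higher in the rechallenged library than in either other library in 13 of 13 classes, by any amount, and Ssr3 was above unchallenged there in 12 of 12. Pdia3 was below unchallenged after 1 challenge in 11 of 12 classes and at least 1.5-fold lower after 2 in 7 of 12. These orders were therefore not particular to the progenitors, and the part of a difference between whole libraries in them was not tested.

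**Figure D4:**
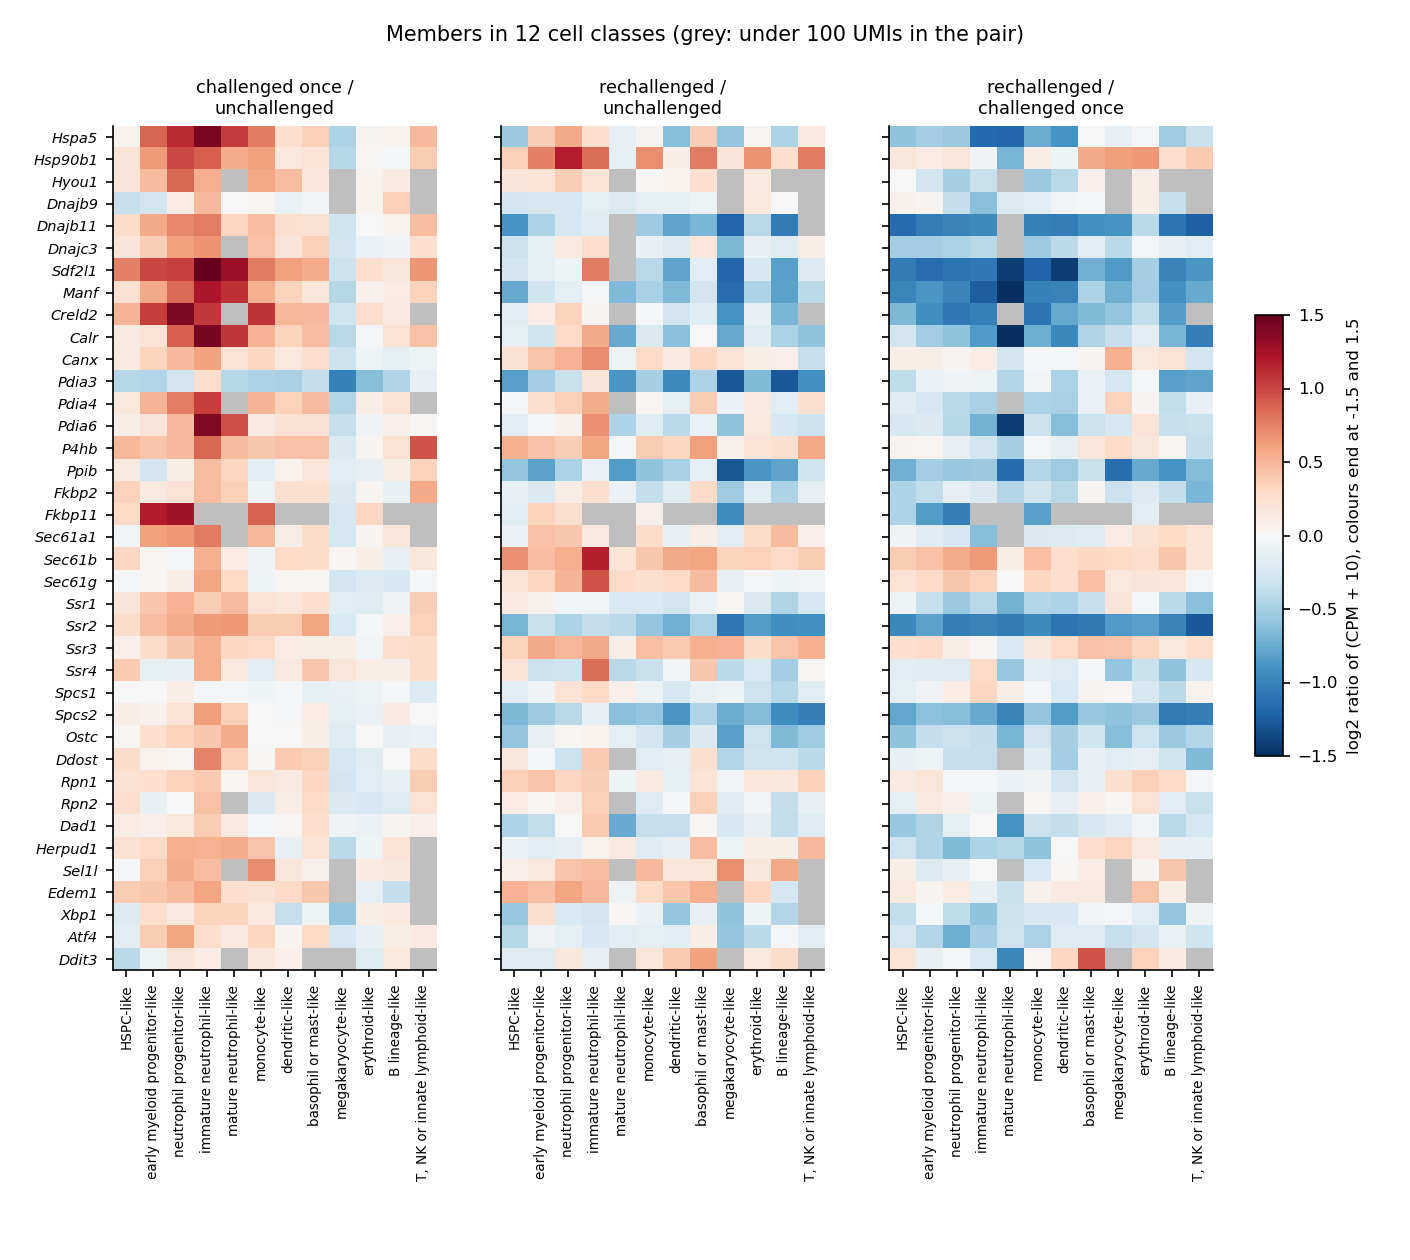
Log2 ratio of (CPM + 10) of the 38 genes in 12 of the named cell classes for the 3 pairs of libraries, red where the first named library is higher and blue where it is lower; grey cells had under 100 UMIs in the pair, and colours end at -1.5 and 1.5. In the left panel the darkest red lies in the progenitor, neutrophil and monocyte columns and the erythroid column is near white, while in the right panel the Ssr2, Sdf2l1 and Dnajb11 bands are blue in nearly all columns.

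The genes' promoters were searched for the short elements bound in the stress response. RefSeq windows from 250 bases before to 50 bases after a gene's start (GRCm38.p6) were at hand for 33 of the 38 genes. These 33 genes had 37 windows. Shares of the 33 are per gene, with a match in any of its windows counted, while shares of all windows are per window. The endoplasmic reticulum stress response element, read on both strands as CCAAT and CCACG with 9 bases of any kind between them, was in the windows of 7 of the 33 (21.2%), against 0.119% of all 32851 windows. A second form, ATTGG and CCACG with 1 base between them, was in 2 of the 33 (6.06%), against 0.0365% of all windows. Many of the genes were put in the set as genes of the stress response. Their excess of its elements over all windows thus follows from that choice and is not a result of the 3 libraries. The 10 matches, in 9 genes, are shown because 6 of these genes were among the 13 higher after 1 challenge, written 5′ to 3′ on the strand where they read so, with the fixed letters of each element in capitals.

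Hspa5, chr2:34772025-34772043, plus strand: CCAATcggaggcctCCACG
Hsp90b1, chr10:86705533-86705551, plus strand: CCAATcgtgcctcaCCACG
Hsp90b1, chr10:86705638-86705656, minus strand: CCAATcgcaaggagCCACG
Creld2, chr15:88819520-88819538, minus strand: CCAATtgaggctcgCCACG
Calr, chr8:84847075-84847093, plus strand: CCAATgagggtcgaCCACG
Canx, chr11:50325800-50325818, minus strand: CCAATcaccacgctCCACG
Dnajc3, chr14:118937827-118937845, plus strand: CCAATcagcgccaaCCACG
Pdia6, chr12:17266491-17266509, plus strand: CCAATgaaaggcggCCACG
Dnajb11, chr16:22857852-22857862, plus strand: ATTGGcCCACG
Herpud1, chr8:94386377-94386387, plus strand: ATTGGgCCACG

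Of the 9 genes with either element 6 were higher after 1 challenge in neutrophil progenitor-like cells, with a median log2 ratio of 0.72 and a range from 0.48 to 1.41. Of the 24 genes with a window and neither element 4 were higher, with a median of 0.21, where 2.16% of all genes measured were higher. Among early myeloid progenitor-like cells 3 of the 9 and 2 of the 24 were higher, with medians of 0.37 and 0.11, where 3.22% of all genes measured were higher. Sdf2l1 and Fkbp11 were among the genes with neither exact match. The element TGACGTGG was in none of the 33, against 0.676% of all windows, and the element TGATGNAAN, bound by Atf4 with a partner, was in 1, Herpud1 (3.03%), against 3.95% of all windows. A match is a run of letters in a window and does not show that a factor was bound.

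Of 85 further genes of the pathway measured in neutrophil progenitor-like cells 9 were higher after 1 challenge and 0 lower, with a median log2 ratio of 0.29, where 2.16% of all genes measured were higher. Among early myeloid progenitor-like cells 6 of 81 were higher, with a median of 0.18, where 3.22% of all genes measured were higher. The 6 stress sensors and their proteases had a median of 0.06 and none was counted, and the largest ratio was that of Atf6b, at 30.3, 38.2 and 24.9 CPM. In neutrophil progenitor-like cells 5 of 12 targets of Atf4 and the integrated stress response were higher after 1 challenge, with a median of 0.50. Of the 12 targets 5 were lower after 2 challenges than after 1, with a median of -0.44, where 9.22% of all genes measured were lower. They include Psat1, an enzyme of serine synthesis, at 48.9, 95.6 and 52.3 CPM, and Mthfd2, a mitochondrial folate enzyme, at 24.8, 50.7 and 22.3 CPM. Both were high only after 1 challenge.

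The remaining lists gave few calls after 1 challenge in neutrophil progenitor-like cells, where 2.16% of all genes measured were higher. In lists this short a single call is not read as a result about the list. Of 15 other folding enzymes none was counted, with a median of 0.26, and Erp29 stood at 260, 393 and 293 CPM. Of 21 other genes of entry and glycosylation 1 was higher, Srp19 of the signal recognition particle, at 104, 191 and 155 CPM. Of 13 other degradation genes 1 was higher, Vcp, the ATPase that pulls proteins out of the membrane, at 149, 250 and 214 CPM. Of 18 genes of transport between the endoplasmic reticulum and the Golgi 2 were higher, Sec24d, a cargo adaptor of the outbound coat, at 13.2, 28.4 and 32.1 CPM, and Surf4, a cargo receptor, at 115, 179 and 149 CPM.

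The granule cargo did not follow the folding genes. Among neutrophil progenitor-like cells the 10 azurophil granule genes held 3.72%, 2.94% and 2.35% of UMIs, highest in the unchallenged library. The specific granule genes, made later in the lineage, held 4.85%, 2.89% and 2.90% there. After 1 challenge 2 of the 10 azurophil and 7 of 11 specific granule genes were lower, where 1.23% of all genes measured were lower. The specific granule genes held 1.10%, 0.2197% and 0.232% in early myeloid progenitor-like cells, and 1.03%, 0.153% and 0.559% in erythroid-like cells. The unchallenged library was thus the highest in erythroid-like cells too, so that order was not particular to granule-forming cells. None of the 12 listed specific granule genes was at 0 in erythroid-like cells. Immature neutrophil markers moved alike, with 0.347%, 0.0651% and 0.0680% in early myeloid progenitor-like cells. They held 0.407%, 0.0515% and 0.0572% in HSPC-like cells and 0.299%, 0.0347% and 0.136% in erythroid-like cells. The part of these shares in the ratios of the folding genes was not tested.

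Heat shock chaperones that work outside the endoplasmic reticulum, a list mostly of cytosolic and nuclear proteins with the mitochondrial Hspd1 and Hspe1, moved with the same libraries. Among neutrophil progenitor-like cells 7 of 14 were higher after 1 challenge, with a median log2 ratio of 0.60, where 2.16% of all genes measured were higher. After 2 challenges 12 of 14 were lower than after 1, with a median of -0.93, where 9.22% of all genes measured were lower. Among early myeloid progenitor-like cells 8 of 14 were higher after 1 challenge, with a median of 0.68, where 3.22% of all genes measured were higher. Hspa1b, an inducible Hsp70, stood at 4.80, 34.6 and 2.66 CPM in neutrophil progenitor-like cells, and Hspd1, a mitochondrial chaperonin, at 215, 491 and 213 CPM. Their summed share was 0.562%, 0.915% and 0.481% in neutrophil progenitor-like cells and 0.965%, 0.995% and 0.919% in erythroid-like cells. Their part in the order of the endoplasmic reticulum genes was not tested.

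**Figure D5:**
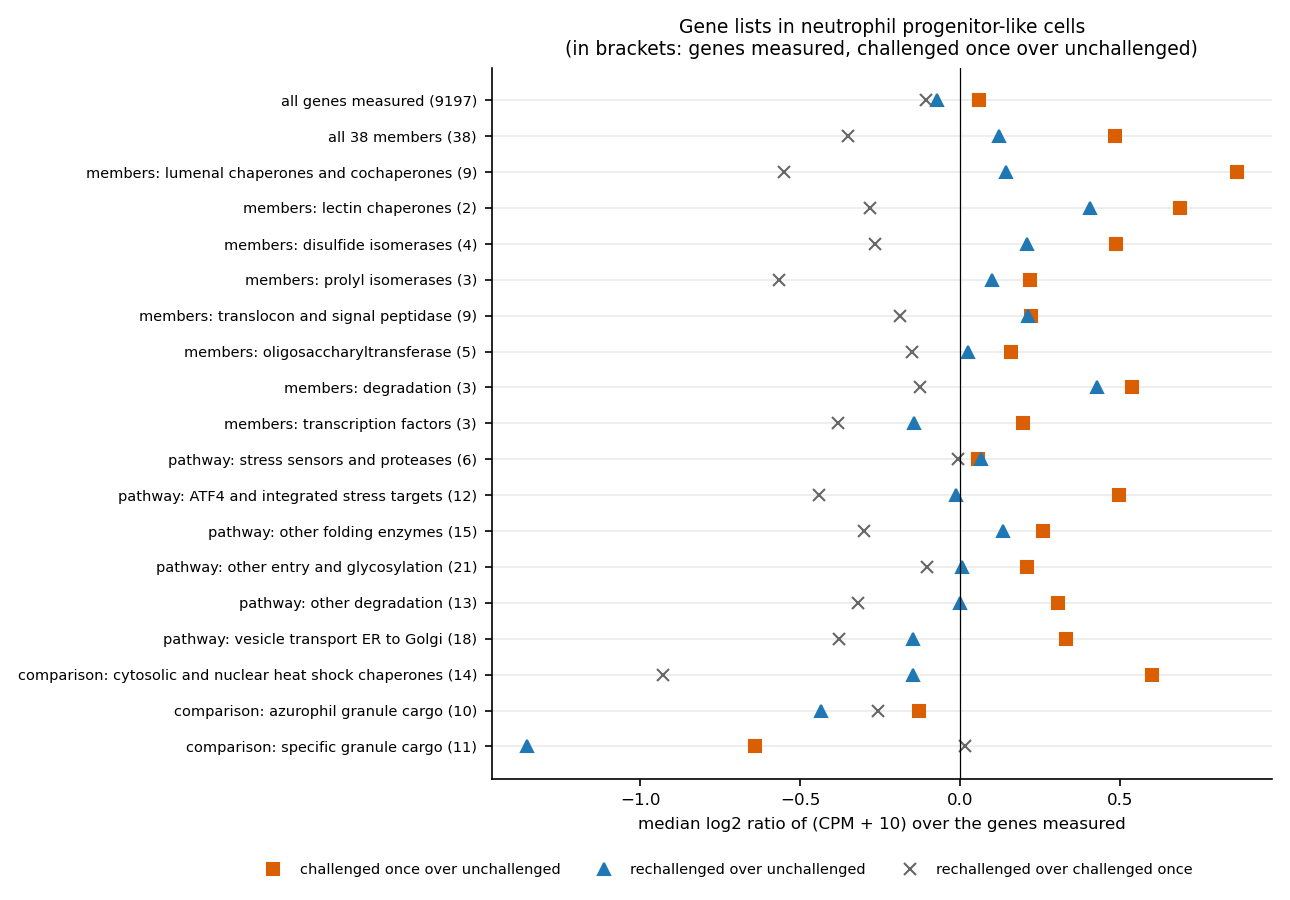
Median log2 ratio of (CPM + 10) of each gene list in neutrophil progenitor-like cells, with squares for challenged once over unchallenged, triangles for rechallenged over unchallenged and crosses for rechallenged over challenged once. The lumenal chaperones have the rightmost square (0.86), the cytosolic and nuclear heat shock chaperones the leftmost cross (-0.93), and the specific granule cargo lies to the left for both comparisons with the unchallenged library.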

How the data were processed

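Per the labels, the 3 libraries are 10x Genomics 3 prime version 2 libraries, and the deposited tables were checked to hold whole UMI counts per gene and barcode, where no barcode held under 500. Cell Ranger 3.0.0 and mm10 are given in the submitters' processing notes. The annotation release and strand setting are not given in the sources used here.

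The cell filter asked for 500 UMIs, 300 genes and a mitochondrial share of no more than 10%. Doublets called by Scrublet at an expected rate of 6% were left out (4.63%, 3.40% and 3.00% of cells). Cells were clustered together with scanpy 1.11.5 and leidenalg 0.10.2 on 2000 variable genes, 30 components and 15 neighbours at resolution 1, without correction between libraries. Clustering did not use the members, mitochondrial or ribosomal protein genes, or the lists for the pathway, heat shock, interferon, inflammation, immediate early response, cell cycle and sex. Names rest on marker lists and end in "like"; the naming rule was set after the clusters were seen, and 384, 544 and 390 cells stayed unnamed. The members and lists were chosen with earlier results of these data known.

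UMIs were summed per class and library. Ratios are log2 of (CPM + 10), for genes whose 2 libraries sum to 100 UMIs or more, and are counted past 1.5-fold. Folds are ratios of CPM without the added 10, with exact conditional binomial 95% intervals. Intervals cover counting error only. Values are given for Hspa5, Xbp1, Atf4 and Ddit3 and the 6 members with the largest ratio in each comparison and progenitor population, and for up to 3 genes of each other list; further members are given to account for all 38. Of the other lists' genes 1, Hm13, was not found in the tables. The ratio script was tested on simulated data. Alternatives changed the cell filter, doublets, clustering, scaling, added CPM, count minimum, cell weights and clusters used. Other tools were numpy 2.4.6, scipy 1.17.1, pandas 2.3.3, anndata 0.12.19 and matplotlib 3.10.9.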

Additional observations from a re-analysis of the deposited data

Results flagged for a closer look

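For 4 genes, 2 cell classes moved at least 1.5-fold in opposite directions under the same comparison. The differences between the classes were not tested, each class is 1 sum per library, and the megakaryocyte-like class held 68, 76 and 84 cells. For rechallenged over unchallenged, Sdf2l1 had a log2 ratio of 0.78 in immature neutrophil-like cells (42.9 against 81.0 CPM) and -1.17 in megakaryocyte-like cells (342 against 146 CPM). The immature neutrophil-like class joins 3 clusters whose mix differed between libraries. Pdia6 had 0.69 in immature neutrophil-like cells and -0.60 in megakaryocyte-like cells. For rechallenged over challenged once, Hsp90b1 had 0.65 in erythroid-like cells (171 against 275 CPM) and -0.70 in mature neutrophil-like cells (125 against 73.5 CPM). Ddit3 had 0.95 in basophil or mast-like cells (49 against 123 UMIs) and -0.96 in mature neutrophil-like cells (65 against 45 UMIs). The mature neutrophil-like class joins 2 clusters, of which 1 held 4, 282 and 452 cells.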

How the results depend on the processing

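Of 126 counts of members recomputed under the alternatives, 109 stayed within 1.5 times the reported count. Of 597 ratios of named genes 145 moved by more than their counting error, as did 12 of 63 medians, and 0 changed sign past 1.5-fold. All counts for challenged once over unchallenged stayed within 1.5 times the reported count. They were 10 to 14 higher in neutrophil progenitor-like cells and 4 to 7 in early myeloid progenitor-like cells. For rechallenged over unchallenged in early myeloid progenitor-like cells, 1 higher became 2 with the median of gene ratios, 2 with 1 CPM added, 2 with equal cell weights and 0 at resolution 2. The 1 lower there became 3 with equal cell weights, 4 with doublets kept, 7 at resolution 2 and 4 with the members among the clustering genes. For rechallenged over challenged once there, the median of gene ratios gave 1 higher and resolution 2 gave 13 lower. In neutrophil progenitor-like cells, rechallenged over unchallenged gave 7 higher with the median of gene ratios, 4 in the later cluster alone and 1 with at least 1000 UMIs and 500 genes, and 1 lower in the earlier cluster alone. Rechallenged over challenged once gave 2 higher and 6 lower with the median of gene ratios, and 1 higher in the later cluster alone. The cause of these shifts was not tested. Clustering after the stricter cell filter gave no early myeloid progenitor-like cluster, so that alternative has no value there; with the cluster labels kept it was run. The use of single clusters (immature neutrophil-like ones included) and the kept labels were chosen after seeing the data. No paired analysis was possible because each group is 1 library. With that number no spread between animals or libraries can be had.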
